A study of Mus musculus with 24 samples.

Results

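Pseudogene promoter peaks are regions of open chromatin that lie at most 1000 bp from the annotated transcription start site (TSS) of a pseudogene. They were taken from the deposited peak annotation by a rule on gene type and distance, which uses no count. The rule gave 727 of 150646 consensus peaks, at 614 pseudogenes. Of these pseudogenes 519 had 1 such peak and 95 had 2 or more, up to 5. By annotated type, 477 peaks belonged to processed pseudogenes, 121 to unprocessed ones and 43 to transcribed ones, of which 20 were transcribed processed and 23 transcribed unprocessed. The remaining 86 comprised 61 peaks of pseudogenes with no subtype, 14 of polymorphic and 7 of unitary pseudogenes, and 4 of immunoglobulin or T cell receptor segments.

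The peaks come from ATAC-seq, an assay that uses Tn5, a transposase, to cut accessible DNA and tag the ends for sequencing. Small intestinal epithelium was taken from aged and young C57BL/6JRj mice, released with EDTA and trypsin, and sorted for EpCam and against the leukocyte marker CD45. The 24 sample records are 6 libraries with 4 lanes each: aged 1, 2 and 4, and young 1, 2 and 4 (n = 3 libraries per age). The labels give the ages as words. The design text of the series gives 20 to 22 months for aged and 2 to 3 months for young animals, and speaks of organoids for ATAC-seq, whereas the labels of these samples say freshly isolated cells. Nothing in the labels ties a library to its own mouse, so p-values measure the spread between these libraries, which may in part be technical.

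Pseudogenes are copies or remnants of genes that have lost the ability to make the original protein. A processed pseudogene arises when an mRNA is reverse transcribed and inserted elsewhere, so it normally arrives without the introns and the promoter of its source gene. An unprocessed pseudogene arises from a duplicated stretch of DNA and can carry a copied promoter, and a transcribed pseudogene is one for which RNA is on record. A polymorphic pseudogene is intact in some strains or individuals and broken in others. Because a copy resembles its source, reads may be placed on either one or discarded as ambiguous, and how these reads were counted is not given in the sources used here. Counts at close copies are therefore uncertain.

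Several members among the most open of all, of their type or of the named copies lay at a RefSeq protein-coding start. This was the start of a neighbour or of the same gene typed otherwise. The sequences there are shown because they belong to that protein-coding gene's promoter. The lines give the 250 bases before the RefSeq TSS (GRCm38.p6), on the strand of the gene and read 5′ to 3′. Capitals mark the GC box GGGCGG and the CCAAT box, each searched on both strands, so that CCGCCC and ATTGG are marked too. Mvd (chr8:122443423-122443672, minus strand) codes for an enzyme of the mevalonate pathway and lies under a peak annotated to 9330133O14Rik. The deposited annotation types 9330133O14Rik as a pseudogene, and RefSeq as a long non-coding RNA gene. Ssr3 (chr3:65392554-65392803, minus strand) codes for a subunit of the translocon-associated protein complex of the endoplasmic reticulum and lies under a peak annotated to Gm5540. Ces2c (chr8:104846818-104847067, plus strand) codes for a carboxylesterase and lies under a peak annotated to Matr3-ps2. Gm13286 (chr4:88757594-88757843, plus strand) and Zfp939 (chr7:39449261-39449510, plus strand), a zinc finger gene, are pseudogenes in the deposited annotation and protein-coding in RefSeq.
Mvd: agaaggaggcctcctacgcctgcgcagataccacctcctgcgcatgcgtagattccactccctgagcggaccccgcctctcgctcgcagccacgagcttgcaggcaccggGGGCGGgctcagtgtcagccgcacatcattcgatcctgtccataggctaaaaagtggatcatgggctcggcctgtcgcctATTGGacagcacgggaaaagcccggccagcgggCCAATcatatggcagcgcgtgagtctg
Ssr3: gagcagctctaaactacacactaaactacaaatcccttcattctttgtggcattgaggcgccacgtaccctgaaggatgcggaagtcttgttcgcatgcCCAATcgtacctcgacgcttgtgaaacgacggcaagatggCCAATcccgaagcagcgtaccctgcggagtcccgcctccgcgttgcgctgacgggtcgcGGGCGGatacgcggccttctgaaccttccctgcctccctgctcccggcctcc
Ces2c: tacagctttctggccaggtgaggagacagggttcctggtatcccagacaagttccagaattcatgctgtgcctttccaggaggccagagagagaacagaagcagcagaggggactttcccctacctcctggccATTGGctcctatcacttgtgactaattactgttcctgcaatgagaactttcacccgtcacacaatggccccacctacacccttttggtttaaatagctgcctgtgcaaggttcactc
Gm13286: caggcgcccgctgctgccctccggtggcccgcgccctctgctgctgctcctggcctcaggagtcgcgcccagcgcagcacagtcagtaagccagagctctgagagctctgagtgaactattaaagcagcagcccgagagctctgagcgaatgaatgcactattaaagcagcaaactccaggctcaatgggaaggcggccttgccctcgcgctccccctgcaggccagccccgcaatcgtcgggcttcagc
Zfp939: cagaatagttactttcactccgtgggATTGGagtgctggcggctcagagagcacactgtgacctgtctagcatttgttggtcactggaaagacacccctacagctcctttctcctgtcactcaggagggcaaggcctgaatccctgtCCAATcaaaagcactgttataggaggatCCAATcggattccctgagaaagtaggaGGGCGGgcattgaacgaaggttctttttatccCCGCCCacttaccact
In these windows Mvd and Ssr3 each held 1 GC box and 2 CCAAT boxes, Zfp939 2 and 3, Ces2c 0 and 1, and Gm13286 neither. In all, 33 members overlapped 39 such windows of 34 RefSeq protein-coding genes. The GC box occurred in 53.8% of those 39 windows, against 42.6% of the 21263 windows of RefSeq protein-coding genes. The CCAAT box occurred in 46.2% of the 39 and in 35.4% of all windows, and the TATA motif TATAAA, also searched on both strands, in 5.13% and 11.6%. The median number of CpG dinucleotides was 17 in the 39 windows and 10 in all windows. The 39 windows were picked by overlap with an open peak, whereas the 21263 were taken with or without one, so the sets also differ in openness. These are descriptions of letters in fixed windows, and no binding was measured.

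Pseudogene promoter peaks were narrow and weakly open compared with the promoters of protein-coding genes. Levels are library-size normalised counts (CPM), scaled with edgeR's trimmed mean of M-values, per kb of peak and averaged over the 6 libraries. The median level was 7.61 CPM per kb for pseudogene promoter peaks, 23.4 for the 15061 protein-coding promoter peaks, and 8.99 for all consensus peaks. The median width was 223 bp for pseudogene promoter peaks, equal to that of all consensus peaks, and 461 bp for protein-coding promoter peaks.

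The types differed in level. Processed pseudogene peaks had a median of 6.76 CPM per kb, unprocessed 7.83, transcribed 10.7 and the remaining types 19.8. Within a library the transcribed median was 1.55 ± 0.210 times the processed median (SD over 6 libraries), with a range of 1.29 to 1.77, so it was higher in each of the 6 libraries. The unprocessed median was 1.15 ± 0.0797 times the processed one (range 1.05 to 1.29), and the transcribed median was 1.36 ± 0.217 times the unprocessed one (range 1.11 to 1.64; both SD, n = 6). The types overlapped widely, since the interquartile range of the processed peaks ran from 4.25 to 11.9 CPM per kb, and that of the transcribed peaks from 4.79 to 27.9. The transcribed median also moved with few peaks. Among members with no protein-coding promoter peak within 2000 bp, the medians were 6.67 for processed, 7.79 for unprocessed and 8.10 for the 41 transcribed peaks. Transcribed and unprocessed peaks were then nearly equal. Median widths followed the same order, 212 bp for processed, 234 bp for unprocessed, 314 bp for transcribed and 375.5 bp for the remaining types.

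**Figure D1:**
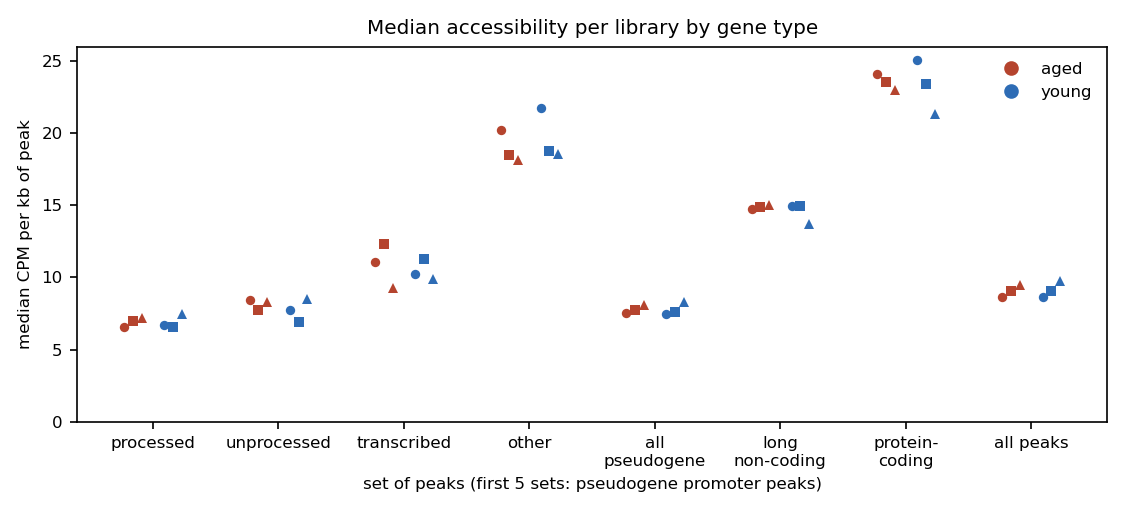
Median level of the pseudogene promoter peaks by annotated type in each library, beside long non-coding promoter peaks, protein-coding promoter peaks and all peaks. The y axis is the median CPM per kb of peak on a linear scale, with aged and young libraries in separate colours. Taken over the means of the 6 libraries, the processed, unprocessed and transcribed medians are 6.76, 7.83 and 10.7.

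The most open member was at Pisd-ps2, a transcribed unprocessed copy of the gene for phosphatidylserine decarboxylase, a mitochondrial enzyme of phospholipid synthesis. Its peak (chr17:3083920-3084532, GRCm38, 186 bp upstream of the TSS) reached 208 CPM per kb. It was followed by H2-K2, an unprocessed class I histocompatibility pseudogene, at 145 CPM per kb. A pair of peaks of 9330133O14Rik came next at 131 and 110 CPM per kb, the second of them over the Mvd promoter shown above. Mup-ps23, a processed copy from the family of major urinary proteins, had 99.3 CPM per kb, Gm5540 at the Ssr3 promoter 92.4, the transcribed processed 2010010A06Rik 87.6 and Gm13286 80.4. In RefSeq 9330133O14Rik and 2010010A06Rik are long non-coding RNA genes, and Gm13286 is protein-coding.

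None of these peaks was called between the ages by the quasi-likelihood test of edgeR, with p-values adjusted by the Benjamini-Hochberg method. Pisd-ps2 came nearest, with 146, 132 and 136 CPM in aged 1, 2 and 4, against 118, 112 and 118 CPM in young 1, 2 and 4. Every aged library lay above every young one. The log2 fold change came to 0.25 (SE 0.10, edgeR adjusted p = 0.411), and with the replicate number as a block the edgeR adjusted p was 0.00182. H2-K2 had 95.2, 83.9 and 76.0 CPM in the aged libraries, against 86.3, 75.3 and 73.9 CPM in the young ones. Its groups overlapped, with a log2 fold change of 0.11 (SE 0.11). Mup-ps23 had 104, 93.9 and 93.4 CPM in the aged libraries, against 84.0, 80.0 and 90.8 CPM in the young ones, without overlap. Its log2 fold change was 0.20 (SE 0.11, edgeR adjusted p = 0.655), and with the block it too was called (edgeR adjusted p = 0.0456).

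Where a member lay near a protein-coding start it was more open. The 55 members within 1000 bp of a RefSeq protein-coding TSS had a median of 23.0 CPM per kb, close to that of protein-coding promoter peaks. The 660 others with a known distance to such a TSS had 7.19. For the 12 members on chromosome 18 this distance was not available. The share near a coding TSS was 41% of the peaks of pseudogenes without subtype, 16.3% of the transcribed, 6.61% of the unprocessed and 2.94% of the processed ones. Distance to the pseudogene's own start went with a smaller difference. The 104 members within 100 bp of it had a median of 9.28 CPM per kb, the 280 beyond that but within 500 bp 7.17, and the 343 farther out 7.90.

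Members were found on every autosome and on chromosome X. Chromosome 4 held 79, chromosome 5 76 and chromosome 1 71, whereas chromosome 18 held 12 and chromosomes 13, 15 and 16 held 14 each. All peaks per chromosome were not counted beside these, so no trait of pseudogene peaks is read from them. Calls by edgeR fell on 5 of 70 tested members of chromosome 4 (7.14%) and 2 of 54 of chromosome 11 (3.7%). Chromosomes 3, 9 and 13 had 1 of 49 (2.04%), 1 of 26 (3.85%) and 1 of 10 (10%). Beside these stand 1.66% of all tested members and 1.6% of all tested peaks. Differences between chromosomes were not tested.

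The pseudogene type was a property of the annotation used. Of the 727 members, 401 had a symbol in RefSeq. There 290 were pseudogenes and 57 transcribed pseudogenes, but 28 were protein-coding and 20 long non-coding RNA genes. Among the protein-coding ones was Cebpd, a transcription factor of the C/EBP family, with 39.4 ± 2.33 CPM in aged and 39.3 ± 3.14 CPM in young libraries (SD, n = 3 each). Another was Frat1, a regulator of Wnt signalling, whose peak upstream of the TSS had 35.7 ± 3.34 CPM in aged and 35.8 ± 4.45 CPM in young libraries (SD, n = 3 each).

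The members together held the same small share of the signal at both ages. Of all peak counts, 0.403%, 0.401% and 0.403% fell in pseudogene promoter peaks in aged 1, 2 and 4, against 0.407%, 0.401% and 0.413% in young 1, 2 and 4. The ages overlapped, and the difference in means of -0.00486 percentage points was smaller than the larger SD of the ages, 0.00571. The shares of the processed, unprocessed, transcribed and remaining types overlapped between the ages as well.

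Of the 727 members, 602 passed edgeR's filter on low counts and were tested within the fit of 129588 peaks. The 125 untested ones had a median of 36 and at most 68 counts over the 6 libraries. Calls needed a Benjamini-Hochberg adjusted p under 0.05. Of the tested members 10 were called (1.66%), 5 higher and 5 lower in aged epithelium. Of all tested peaks 1.6% were called, 1.44% of the 18834 tested promoter peaks and 1.27% of the 14472 protein-coding ones, so the members' share was near the background. For direction, 0.831% of the members were higher, against 1.07% of all peaks, 0.579% of promoter peaks and 0.442% of protein-coding promoter peaks. The 0.831% that were lower stood beside 0.528%, 0.865% and 0.829% of the same sets.

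Other summaries of the members also lay close to those of all peaks. The median log2 fold change was -0.02 over the tested members, against 0.00 over all tested peaks and -0.01 over promoter peaks. The interquartile range of the members ran from -0.20 to 0.16. The ages did not overlap in 90 tested members (15%), with aged above young in 40 and below in 50, beside 13.9% of all tested peaks, 11.2% of promoter peaks and 10.1% of protein-coding promoter peaks. A difference of more than 2-fold was found in 21 members (3.49%), against 2.4% of all tested peaks. At an unadjusted p below 0.05 there were 62 members (10.3%), against 8.82% of all tested peaks. When the replicate number entered edgeR's fit as a block the calls came to 22 members, 9 higher and 13 lower (3.65%), while the same fit called 3.09% of all peaks.

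**Figure D2:**
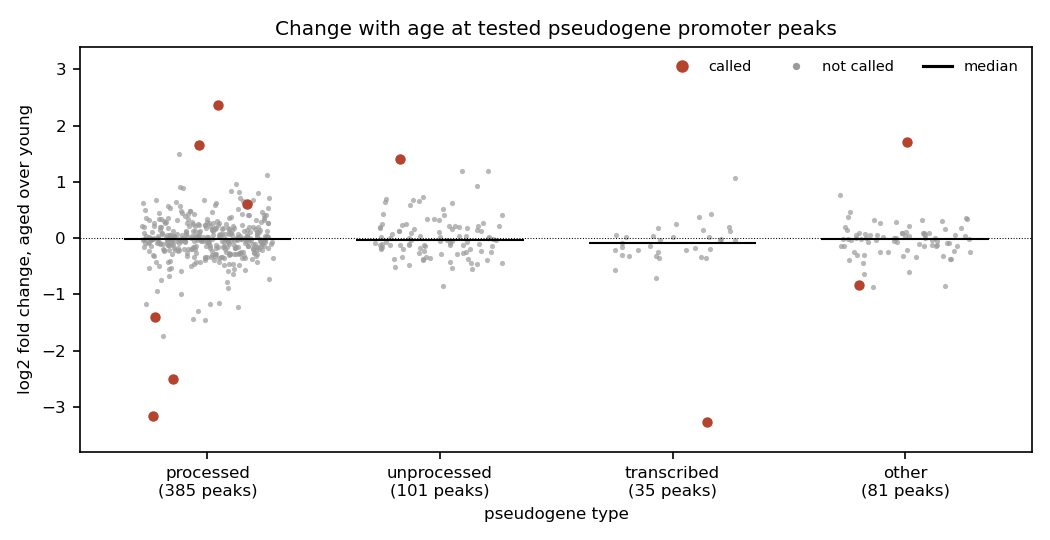
Log2 fold change (aged over young) of the tested pseudogene promoter peaks by type, each point a peak, with called peaks marked. Most points of each type lie near 0, and the 10 called peaks are 6 processed, 1 unprocessed, 1 transcribed and 2 of the remaining types.

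By type, 6 of 385 tested processed peaks were called (1.56%), 3 in each direction. Of 101 unprocessed peaks 1 was higher (0.99%), of 35 transcribed peaks 1 was lower (2.86%), and of the 81 remaining 1 was higher and 1 lower (2.47%). Median log2 fold changes were -0.02 for processed, -0.03 for unprocessed, -0.09 for transcribed and -0.01 for the remaining types. In the transcribed type 10 of 35 peaks had no overlap between the ages (28.6%), with aged above in 3 and below in 7. This share was 14.5% for processed, 13.9% for unprocessed and 12.3% for the remaining types, and 13.9% for all tested peaks. Differences between these shares were not tested.

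Among the transcribed members without overlap, Smarca5-ps was called and the others were not. Zfp783, a zinc finger pseudogene, had 11.7 ± 0.235 CPM in aged and 14.3 ± 1.42 CPM in young libraries (SD, n = 3 each; log2 fold change -0.31). Adh6-ps1, a copy from the alcohol dehydrogenase family, had 1.34 ± 0.380 CPM in aged and 2.28 ± 0.371 CPM in young libraries (log2 fold change -0.71). Klk1b7-ps, from the kallikrein family of serine proteases, had 12.3 ± 3.35 CPM in aged and 9.04 ± 0.495 CPM in young libraries (log2 fold change 0.43, edgeR adjusted p = 0.291). Aged 4 was at 16.1 CPM, above 10.2 and 10.5 CPM in aged 1 and 2, and without it the log2 fold change was 0.19 (edgeR adjusted p = 0.967).

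Unprocessed members that were not called without the block included Serpinb1-ps1, from the family of serine protease inhibitors. Its peak at chr13:32862494-32862789 had 1.36, 0.961 and 2.39 CPM in the aged libraries, against 0.412, 0.693 and 1.27 CPM in the young ones. Aged 2 lay below young 4, so the groups overlapped, and the log2 fold change was 1.20 (SE 0.40, edgeR adjusted p = 0.178). The call appeared when aged 2 was left out (adjusted p = 0.0332).

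Gm13341, another unprocessed pseudogene, had 4 member peaks on chromosome 2, which share 1 start site and are not independent. The peak 526 bp upstream of the TSS had 2.03, 1.75 and 1.08 CPM in the aged libraries, against 0.732, 0.990 and 0.796 CPM in the young ones, without overlap (log2 fold change 0.93, SE 0.33, edgeR adjusted p = 0.238). With the replicate block this peak was called (log2 fold change 1.02, edgeR adjusted p = 0.0444). The peaks 290 bp downstream and 286 bp upstream had log2 fold changes of 0.52 and 0.69. The peak 733 bp upstream had 1.18 ± 0.534 CPM in aged and 1.18 ± 0.310 CPM in young libraries (SD, n = 3 each), so the difference was not shared by all 4.

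Zfp939 and Gm13284 were among the 3 most open members of their types. Zfp939 had 48.3, 48.9 and 44.9 CPM in the aged libraries, against 46.9, 46.4 and 47.1 CPM in the young ones (log2 fold change 0.02, SE 0.11). Gm13284, an unprocessed pseudogene near Gm13286 on chromosome 4, had 16.5 ± 1.04 CPM in aged and 16.1 ± 1.51 CPM in young libraries (SD, n = 3 each). The groups overlapped in both.

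**Figure D3:**
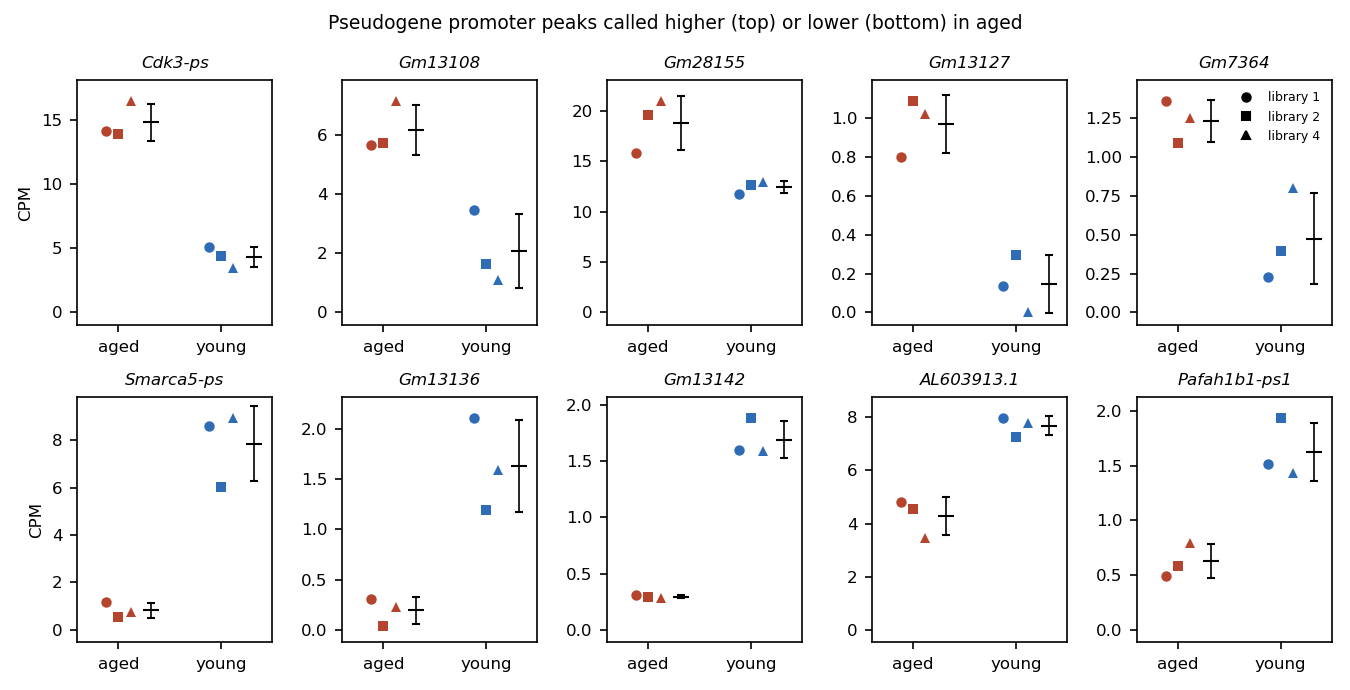
CPM of the 10 called pseudogene promoter peaks in each library, aged left and young right, with mean and SD (n = 3 libraries per age) and the replicate number shown by the marker. In each panel all 3 aged libraries lie on one side of all 3 young libraries.

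Of the 5 members that were lower in aged epithelium, Smarca5-ps had the smallest p. It is a transcribed processed copy of Smarca5, which codes for the ATPase of ISWI chromatin remodelling complexes. Its peak (chr4:145463712-145464364, 166 bp upstream of the TSS) had 1.17, 0.543 and 0.738 CPM in aged 1, 2 and 4, against 8.60, 6.04 and 8.92 CPM in young 1, 2 and 4. The raw counts were 19, 13 and 13 in the aged libraries, against 188, 122 and 56 in the young ones. Each young library was thus several times above each aged one, although young 4 was by far the shallowest. The fitted difference was 9.72-fold lower in aged epithelium (log2 fold change -3.28, SE 0.26, edgeR adjusted p = 1.91e-10).

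Gm13136 and Gm13142, both processed pseudogenes on chromosome 4, were low throughout and lower in aged epithelium. Gm13136 (chr4:147738591-147738975) had 0.308, 0.0418 and 0.227 CPM in the aged libraries, against 2.11, 1.19 and 1.59 CPM in the young ones. These were 5, 1 and 4 raw counts in the aged libraries, against 46, 24 and 10 in the young ones. Gm13142 (chr4:147102053-147102496) had 0.308, 0.292 and 0.284 CPM in the aged libraries, against 1.602, 1.882 and 1.592 CPM in the young ones. Neither had overlapping groups. Their log2 fold changes were -3.17 (SE 0.48, edgeR adjusted p = 6.88e-05) and -2.51 (SE 0.38, edgeR adjusted p = 7.97e-05).

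AL603913.1, a pseudogene without subtype, had a peak at chr11:44617015-44617343. The RefSeq TSS of Ebf1, a transcription factor best known from B cells, lies 921 bp away. The peak had 4.81, 4.55 and 3.46 CPM in the aged libraries, against 7.96, 7.28 and 7.80 CPM in the young ones. The young values lay close together and above all aged values, with a log2 fold change of -0.84 (SE 0.17, edgeR adjusted p = 0.00454). Of the leukocyte markers, 1 of 8 had a promoter peak, Coro1a, at 8.75 to 12.3 CPM in aged and 9.26 to 10.8 CPM in young libraries; Cd79a, a component of the B cell receptor, had none. The part of other cells in this difference was not tested.

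Pafah1b1-ps1 is a processed copy of Pafah1b1, whose product regulates the motor protein dynein. Its peak at chr3:96409585-96409784 had 0.493, 0.585 and 0.795 CPM in the aged libraries, against 1.51, 1.93 and 1.43 CPM in the young ones. The groups did not overlap, and the log2 fold change was -1.40 (SE 0.34, edgeR adjusted p = 0.0196). The call was lost without aged 1, aged 2 or young 2 and with DESeq2, with adjusted p-values up to 0.249. A second, untested peak of the same copy, 983 bp upstream of the TSS, had 1, 4 and 2 counts in the aged libraries, against 10, 19 and 3 in the young ones.

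Among the 5 members that were higher in aged epithelium, Cdk3-ps had the smallest p. Cdk3 codes for a cyclin-dependent kinase, and the mouse gene is disrupted in common laboratory strains. The annotation types it as a polymorphic pseudogene. The peak (chr11:116216646-116217008) lies in exon 2 of 5, 341 bp downstream of the TSS. It had 14.1, 13.9 and 16.5 CPM in aged 1, 2 and 4, against 5.08, 4.41 and 3.50 CPM in young 1, 2 and 4. All aged libraries were well above all young ones, a 3.28-fold difference (log2 fold change 1.71, SE 0.16, edgeR adjusted p = 9.24e-09). The 17 other tested peaks within 50000 bp included 0 called ones by edgeR, with log2 fold changes between -0.21 and 0.62.

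Gm13108, the called unprocessed pseudogene, lies on chromosome 4. Its peak (chr4:144032667-144033137, 729 bp upstream of the TSS) had 5.67, 5.72 and 7.16 CPM in the aged libraries, against 3.48, 1.63 and 1.11 CPM in the young ones. The young libraries differed among themselves by more than the aged ones, but none reached the aged values. The log2 fold change was 1.41 (SE 0.24, edgeR adjusted p = 6.31e-04).

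Gm28155, a processed pseudogene, had the highest level of the called members. Its peak at chr13:9140045-9140554 had 15.8, 19.6 and 21.0 CPM in the aged libraries, against 11.7, 12.7 and 12.9 CPM in the young ones. The gap between the groups was small, and the log2 fold change was 0.61 (SE 0.13, edgeR adjusted p = 0.00785). The call was lost without aged 4 or without young 2, where the adjusted p was at most 0.0686. Among its 23 tested neighbours within 50000 bp, 1 more peak was called higher, also annotated to Gm28155 but beyond 1000 bp of its TSS.

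The 2 remaining higher members rested on few counts. Both passed the filter on low counts through the aged libraries, so their direction and lack of overlap partly restate that filter. Gm13127 (chr4:144587709-144587973), a processed pseudogene, had 13, 26 and 18 counts in the aged libraries, against 3, 6 and 0 in the young ones. Gm7364 (chr9:102551807-102552022), also processed, had 22, 26 and 22 counts in the aged libraries, against 5, 8 and 5 in the young ones. In neither did the groups overlap in CPM. Their log2 fold changes were 2.37 (SE 0.52, edgeR adjusted p = 0.00863) and 1.65 (SE 0.43, edgeR adjusted p = 0.0353). The Gm13127 call was lost without aged 2 or young 1 and with DESeq2 (adjusted p up to 0.0727), and the Gm7364 call without aged 1, aged 4, young 1 or young 2 and with DESeq2 (up to 0.283).

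By position within the pseudogene, 6 of 343 tested members upstream of the TSS were called (1.75%), 5 lower and 1 higher. At or downstream of it 4 of 259 were called (1.54%), all higher. By class, 5 lower and 1 higher were annotated promoter-TSS, 3 higher exon and 1 higher TTS, the transcription termination site. The counts are small and were looked at after the values were seen, so no test was made.

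Of the 10 called members, 5 lay on one stretch of chromosome 4 from Gm13108 to Gm13136 (chr4:144032667-147738975, 3.71 Mb). The bounds were set by the called members themselves, so the count in it is a description. The stretch held 9 tested members, 5 of them called, and 136 tested peaks of any kind, of which 7 were called (5.15%). Elsewhere on chromosome 4, 1.79% of 8508 tested peaks were called. Outside the stretch 5 of 593 tested members were called (0.843%), a share that the choice of bounds lowered.

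**Figure D4:**
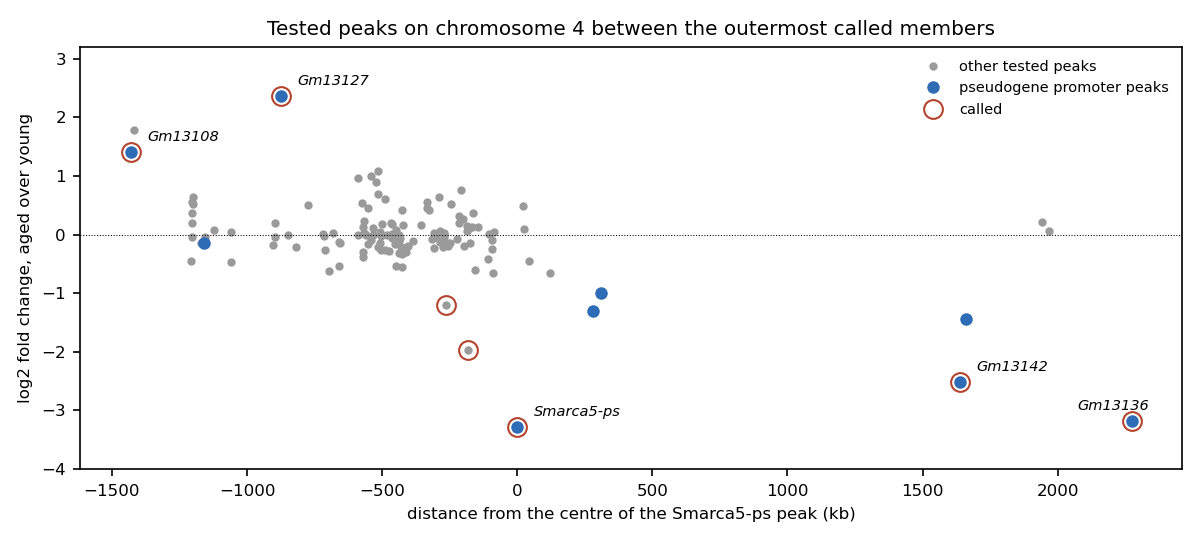
Log2 fold change (aged over young) of the tested peaks along the chromosome 4 stretch, plotted against distance from the Smarca5-ps peak in kb, with pseudogene promoter peaks set apart from other peaks. Smarca5-ps and the 5 pseudogene promoter peaks to its right all lie below 0, and 3 of these 6, among them both end points, are called lower. The 6 other peaks there lie on both sides of 0.

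The density of peaks changed along the stretch. Before Smarca5-ps there were 124 tested peaks in 1.43 Mb (86.6 per Mb), and from Smarca5-ps on 12 in 2.28 Mb (5.27 per Mb). In this sparse segment the 6 tested members were Smarca5-ps, Gm13244, Gm13243, Gm13142, Gm13162 and Gm13136, and their log2 fold changes were all below 0, with a median of -1.98. In 5 of them every aged library lay below every young one. The 6 other tested peaks there had 4 values above and 2 below 0, a median of 0.08 and 0 calls by edgeR. Both ends of the segment are peaks called lower, and 3 of its 6 tested members were called. The direction, median and lack of overlap of these members thus partly restate the choice of bounds. Gm13136 and Gm13142 had at most 7 counts in an aged library. They, Gm13162 and Gm13244 passed the filter on low counts through the young libraries. Their direction and lack of overlap thus also partly restate that filter. A difference from the other peaks was not tested.

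The members of this segment that were not called had few counts. Gm13244 had 0.391 ± 0.144 CPM in aged and 0.955 ± 0.0852 CPM in young libraries (log2 fold change -1.30, edgeR adjusted p = 0.178). Gm13162 had 0.298 ± 0.0860 CPM in aged and 0.844 ± 0.140 CPM in young libraries (log2 fold change -1.45, edgeR adjusted p = 0.163). Gm13243 had 0.650 ± 0.204 CPM in aged and 1.46 ± 0.641 CPM in young libraries, with overlapping groups (log2 fold change -0.99; all SD, n = 3 each). How far these copies share reads with one another was not tested.

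Among pseudogenes named after a source gene, the copy was usually less open than the source. Of 71 such copies, 40 had a source gene with a protein-coding promoter peak in the same table. The source was the more open one in 34 pairs and the copy in 6, with a median source-to-copy ratio of 4.34. Over the pairs, the median level was 6.99 CPM per kb for the copies and 35.5 for the sources. The sources Rpl21, Rpl26, Rpl31 and Rpl38 were counted again for each of their copies. Pisd-ps2 went furthest the other way, with 208 CPM per kb against 14.4 for Pisd. For each gene the most open peak within 1000 bp of its TSS was taken. That of Pisd (chr5:32740525-32740803) had only 4.18 CPM in aged and 3.85 CPM in young libraries on average. Whether it is the main Pisd promoter was not tested. Also among the 6, Matr3-ps2 is the peak over the Ces2c promoter, and Rpl35a-ps5 is of class TTS, 720 bp downstream of its TSS.

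**Figure D5:**
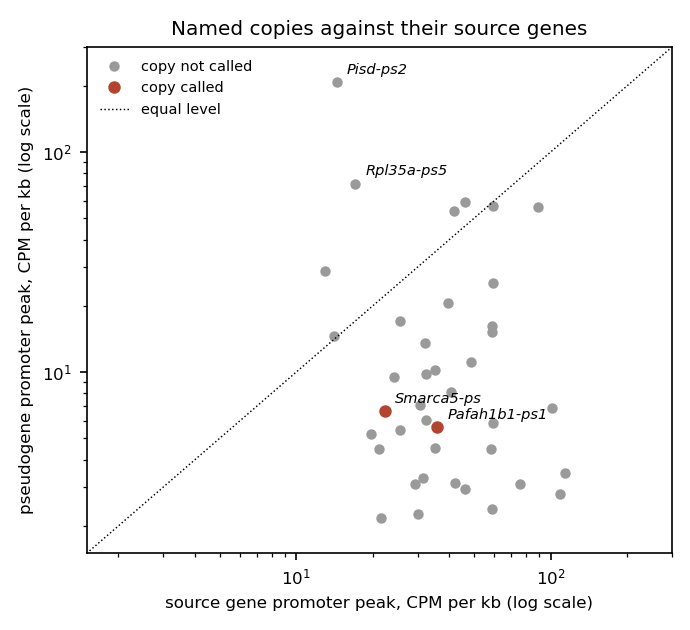
Level of each named pseudogene copy (y axis) against that of its source gene's promoter (x axis), in mean CPM per kb of peak on log scales, for 40 pairs. In 34 pairs the point lies below the line of equality; Pisd-ps2 is the highest point above it.

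Of these 40 copies 31 were tested, and Smarca5-ps and Pafah1b1-ps1 were called (6.45%), beside 1.6% of all tested peaks. The source promoter was tested in all 40 pairs and edgeR called 0, beside 1.27% of protein-coding promoter peaks. A source with several copies recurs among these pairs, so the distinct source promoters are fewer than 40. The Smarca5 promoter (chr8:80711028-80711501) had 11.3 ± 0.289 CPM in aged and 9.91 ± 0.464 CPM in young libraries (SD, n = 3 each; log2 fold change 0.17, SE 0.14, edgeR adjusted p = 0.860). The Pafah1b1 promoter (chr11:74723447-74724758) had 46.4 ± 4.64 CPM in aged and 47.8 ± 7.28 CPM in young libraries (log2 fold change -0.06, SE 0.12, edgeR adjusted p = 0.973).

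Called members by family are to be read against the 1.6% called among all tested peaks, a share at which 0 calls in a small family is no result. Families were set by symbol, so copies under other symbols were left out, such as Rpsa-ps12 for the ribosomal proteins. Ribosomal protein pseudogenes are the most numerous retrocopies of mammalian genomes. Under symbols of Rpl, Rps or Rpp plus a digit they had 26 members, 21 tested and 0 called by edgeR. They ranged from 2.39 CPM per kb at Rpl21-ps8 to 71.7 at Rpl35a-ps5, which had 45.4 ± 6.12 CPM in aged and 46.8 ± 1.86 CPM in young libraries (SD, n = 3 each). Pseudogenes of the major histocompatibility complex had 8 members, all tested, with 0 called, and their groups overlapped in each. H2-Bl, a polymorphic class I gene, had 29.6 ± 3.38 CPM in aged and 28.5 ± 4.58 CPM in young libraries at its upstream peak. Numbered predicted genes made up 485 members with 4 higher and 2 lower calls among 407 tested (1.47%), and the 83 peaks of named copies had 1 higher and 2 lower calls among 64 tested (4.69%).

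Polymorphic pseudogenes include antiviral genes that are defective in C57BL/6 mice. Oas1b, of the oligoadenylate synthetase family, had 25.2, 26.2 and 23.1 CPM in the aged libraries, against 23.4, 23.8 and 23.7 CPM in the young ones, with overlapping groups (log2 fold change 0.07, SE 0.12). An Oas1b member peak covers all 250 bases before a RefSeq TSS of the protein-coding Oas1c. Which of these genes the level belongs to was not tested. Mx2, which codes for an interferon-induced GTPase, had 0.785 ± 0.0800 CPM in aged and 0.628 ± 0.120 CPM in young libraries (SD, n = 3 each; log2 fold change 0.34). Cxcl11, a chemokine, had 1.44 ± 0.198 CPM in aged and 1.22 ± 0.231 CPM in young libraries (log2 fold change 0.15). None of the 3 was called. Of the 14 polymorphic peaks, Cdk3-ps was the one called by edgeR without the block.

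Summing the peaks of each pseudogene gave a similar picture. Of 509 tested pseudogenes 11 were called by the same edgeR test (2.16%), 5 higher and 6 lower. Of all 13880 tested genes 1.74% were called, 0.771% higher and 0.973% lower. Pisd-ps2 was called in this fit (log2 fold change 0.26, SE 0.06, adjusted p = 0.0120), whereas Gm7364 was not (adjusted p = 0.0514). Gm17391, a processed pseudogene whose 2 peaks were too low to be tested singly, was called lower. Its first peak had 0, 5 and 3 counts in the aged libraries, against 12, 8 and 7 in the young ones, and its second had 0 counts in all aged libraries, against 13, 9 and 4 in the young ones.

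Over the libraries, total peak counts ran from 16900796 to 23935291 in aged and from 6149680 to 22819924 in young libraries. Of the epithelial markers, 9 of 10 had a promoter peak, Vil1 being without. Their summed level was 286 to 320 CPM in aged and 297 to 347 CPM in young libraries. Stromal, vessel and neural markers had a peak for 3 of 8, with 16.1 to 16.8 CPM in aged and 14.7 to 17.8 CPM in young libraries. None of the marker peaks was called by edgeR. At the edge of the distance rule, Rpl10-ps2 (1000 bp from the TSS, inside) had 2.72 ± 0.199 CPM in aged and 2.31 ± 0.252 CPM in young libraries, and Gm18984 (1003 bp, outside) had 0.362 ± 0.284 CPM in aged and 0.570 ± 0.239 CPM in young libraries.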

How the data were processed

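Raw counts per consensus peak and an annotation of each peak were deposited by the authors for 6 libraries, with the 4 lanes of a library merged into 1 column. The submitters' processing notes name BWA 0.7.17-r1188, MACS2 2.2.7.1, featureCounts 2.0.1 and the build GRCm38. Not given in the sources used here are the annotation release, the counting of reads or fragments, and any Tn5 shift. The deposited counts carry no normalisation. Counts of every pair of libraries differed by more than counting error (chi-square divided by the number of peaks, 1.71 to 4.13).

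Members had a gene type containing "pseudogene" and an absolute distance to the TSS of at most 1000 bp. This rule uses no count, but the rule, and so the members, and the gene lists were chosen with earlier results of these data known. All 150646 peaks entered edgeR 4.0.16 (R 4.3.3): filterByExpr, TMM scaling, a robust quasi-likelihood fit with age as the only term, and Benjamini-Hochberg adjustment over all tested peaks. SE is the absolute log2 fold change over the square root of F. Log2 fold changes are aged over young. Counts were summed per gene over peaks within 1000 bp of the TSS for a second fit. DESeq2 1.42.0 and limma 3.58.1 were alternatives.

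Named peaks were those called, the 8 most open, and, in the processed, unprocessed and transcribed types, the 3 with the smallest p and the 3 most open. Named copies that were called, or among the 4 most open, were added. Others named in the text were chosen after their values were seen.

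Replicate numbers occur at both ages. Peak by peak, the departures of an aged and a young library from the mean of their own age correlated at 0.236, 0.182 and 0.123 where both had number 1, 2 or 4, all over 0.1, against -0.194 to 0.0287 for other pairs. The numbers were therefore taken to pair the libraries. This rests on the data, as no label explains a number. Age remained the only term, with the block as an alternative. The main p-values, SEs and calls therefore leave this pairing out. With the block 22 tested members were called (3.65%, against 3.09% of all peaks), among them all 10 of the main fit.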

Additional observations from a re-analysis of the deposited data

How the results depend on the processing

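Of the 10 called members, 6 (Smarca5-ps, Cdk3-ps, Gm13136, Gm13142, Gm13108 and AL603913.1) were called in each of 14 alternatives (other scalings, filters and tools, the replicate block and leaving out each library), and none of the named peaks that was called changed direction. Of the 5 higher and 5 lower calls, DESeq2 left 3 higher, and testing without a filter on low counts gave 8 lower. With the replicate number as a block, which treats same-numbered libraries as pairs, there were 9 higher and 13 lower peaks, and per gene 10 higher and 15 lower, against 5 and 6 without it. Per gene, an adjusted p below 0.01 left 3 higher, and limma voom gave 8. Without 1 library at a time, calls ran from 3 to 6 higher and 4 to 7 lower for peaks. The lowest count of higher peaks, 3, came without aged 4 and without young 1. Per gene, they ran from 2 to 8 higher and 5 to 8 lower, with 2 higher without young 1, 3 without aged 4 and 8 without young 4. The distance rule set the counts as well: 2 higher within 500 bp, 0 higher and 1 lower within 100 bp, and 29 higher and 17 lower within 5000 bp, where 1.71% of 2689 tested peaks were called. Restricting members to the promoter-TSS class left 1 higher. At 100 bp or less, 1.11% of 90 tested members were called. The share of counts differed by -0.00774 to -0.00203 percentage points (aged minus young) without 1 library, and the type ratios lay between 1.12 and 1.17 (unprocessed over processed), 1.51 and 1.61 (transcribed over processed) and 1.30 and 1.40 (transcribed over unprocessed) without 1 library. Taken per gene, these ratios were 1.22, 1.76 and 1.45, within 1 SD of the values per peak. Depth limits the weak members: 125 of 727 were untested, and young 4, with 6149680 counts, was the shallowest library.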

Other observations

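Several members gained a call when the replicate number was used as a block. Atp10d, a lipid transporter gene that is broken in C57BL/6 mice and typed as a polymorphic pseudogene, had 9.27 ± 0.372 CPM in aged and 12.6 ± 0.847 CPM in young libraries (SD, n = 3 each). With the block its log2 fold change was -0.44 (SE 0.13, edgeR adjusted p = 0.0264), against an adjusted p of 0.124 without it. The transcribed unprocessed 2610005L07Rik had 29.5, 30.6 and 27.3 CPM in aged 1, 2 and 4, against 41.3, 31.3 and 36.6 CPM in young 1, 2 and 4, with a blocked log2 fold change of -0.30 (SE 0.08, edgeR adjusted p = 0.0188). Rbmx2-ps, a processed copy of a gene for an RNA-binding protein, had 6, 6 and 3 counts in the aged libraries, against 16, 15 and 10 in the young ones, with a blocked log2 fold change of -1.78 (SE 0.49, edgeR adjusted p = 0.0175). Rbmx2-ps passed the filter on low counts through the young libraries.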
